A study of Mus musculus with 4 samples.

Results

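The genes described here encode the machinery that brings proteins into mitochondria and folds them there. They were taken by symbol from the table of fragments per kilobase of transcript and per unit of mapped fragments (FPKM): every gene named Timm or Tomm with a number, plus Pam16, Dnajc19, Grpel1, Grpel2, Hspa9, Hspd1, Hspe1, Pmpca, Pmpcb, Chchd4 and Gfer. The rule found 36 of the 21957 genes in the table. Of these, 7 were small TIM chaperones of the intermembrane space and 14 were large subunits, meaning the TIM23 and TIM22 translocases, Timm44, and the TOM receptors and pore with the paralogs Tomm20l and Tomm40l. The other 15 were 5 further parts of the import motor, 3 small Tom proteins, the 2 chaperonin genes, 2 processing peptidase genes, 2 disulfide relay genes and the cytosolic Tomm34.

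Most mitochondrial proteins are made in the cytosol and enter through the TOM complex of the outer membrane. From there, proteins with a presequence pass the TIM23 complex, are pulled in by a motor built on the chaperone Hspa9, lose the presequence to a peptidase and fold with the help of the chaperonin Hspd1 and Hspe1, while carrier proteins are handed by small TIM chaperones to the TIM22 complex. Small TIM proteins themselves, and the twin CX9C proteins, are trapped in the intermembrane space by a disulfide relay of Chchd4 and Gfer. A fully grown oocyte holds a large stock of mitochondria and of stored mRNA, and it matures without making new mRNA, so that the mRNA pool changes by decay and by the lengthening or shortening of poly(A) tails.

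RNA was measured in 4 libraries with 1 library for each condition, all from oocytes of B6D2F1 hybrid females (C57BL/6 x DBA) aged 6 to 8 weeks that had been primed with PMSG. GV oocytes were taken at the start of culture, and they carry the intact nucleus of meiotic arrest. MII, TubA-10 and TubA-20 oocytes had been freed of cumulus cells and cultured in M16 medium without TubA or with 10 or 20 μM TubA (tubastatin A, made to inhibit the deacetylase HDAC6), and each library was built from poly(A)-selected, strand-marked RNA of a pool of oocytes. The titles of the TubA samples give these doses, while the treatment field states 20 μM for the first and 11 μM for the second, and the title of the MII sample calls it an embryo. MII oocytes are by definition past the first meiotic division, whereas the labels give no meiotic stage for the TubA oocytes. By the methods, MII oocytes were kept only with an extruded polar body, and no such selection is stated for TubA. TubA was dissolved in DMSO, and no DMSO is stated for the control. Stage, selection, solvent and compound therefore cannot be told apart. In such pools, fewer cells that hold an mRNA and less of it per cell cannot be told apart either, and after poly(A) selection neither can a shorter tail and less mRNA.

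With 1 library per condition there is no spread between replicates, no test was possible and no p-value is given. A gene is said to be higher or lower past 2-fold when the ratio of FPKM + 1 exceeds 2, and a fold or log2 change is that of FPKM + 1 unless stated otherwise, which understates the change in FPKM, most of all for low genes. Since FPKM is a share of each library, a higher or lower value need not mean more or less mRNA per oocyte, which was not measured. Ratios between genes are of plain FPKM. FPKM is already divided by transcript length, but a comparison between genes stays approximate. Tail length and sequence shared with other genes can also affect it. An mRNA called more abundant is one of higher FPKM. The 8 oocyte markers summed to between 9703 and 13609 FPKM in each library, but they did not move together. From GV to TubA-20, Zp1, Zp2 and Zp3 fell (Zp3 from 2454 to 973 FPKM), while the others rose (Oosp1 from 2700 to 6213 FPKM). The 10 cumulus and granulosa markers summed to between 8.37 and 13 FPKM, most of it Cyp19a1 (6.14 to 10.3 FPKM), with Foxl2 at 0. Ptx3 was at 0 in GV and TubA-10, 0.555 FPKM in MII and 1.19 FPKM in TubA-20, and the part of such cells in the members' levels was not tested. The 6 blood markers summed to at most 0.0347 FPKM with the 4 globin genes at 0. The median gene with at least 1 FPKM in every library was 0.14 (MII), 0.16 (TubA-10) and 0.23 (TubA-20) higher than in GV on the log2 scale of FPKM without an added value, so that a member with no change in FPKM lay slightly below the median gene.

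The small TIM proteins are recognised by 2 pairs of cysteines, each pair with 3 residues between its cysteines, which form the disulfide bonds that hold their hairpin fold. The coding stretch from the first to the last of these cysteines is shown for all 7 members, since it is what makes them 1 class, and it was read from the principal transcript of each gene in GENCODE on GRCm38. Capitals mark the cysteine codons.
Timm8a1: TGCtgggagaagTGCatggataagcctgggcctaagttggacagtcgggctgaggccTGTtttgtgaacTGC
Timm8a2: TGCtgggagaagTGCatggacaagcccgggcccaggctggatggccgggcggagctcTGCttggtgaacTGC
Timm8b: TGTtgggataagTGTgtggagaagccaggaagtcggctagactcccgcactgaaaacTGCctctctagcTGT
Timm13: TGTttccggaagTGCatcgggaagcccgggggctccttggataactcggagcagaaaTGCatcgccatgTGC
Timm9: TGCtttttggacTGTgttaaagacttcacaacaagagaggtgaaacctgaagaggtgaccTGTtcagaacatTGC
Timm10: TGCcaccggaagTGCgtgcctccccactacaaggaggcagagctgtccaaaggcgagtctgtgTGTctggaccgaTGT
Timm10b: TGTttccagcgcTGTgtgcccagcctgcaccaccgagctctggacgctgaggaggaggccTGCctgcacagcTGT
Between the pairs lay 14 codons in Timm8a1, Timm8a2, Timm8b and Timm13, 15 in Timm9 and Timm10b, and 16 in Timm10. The Timm8 proteins thus share the spacing of Timm13, with which they assemble, whereas Timm9 and its partner Timm10 differ by 1 codon. The whole coding sequences ran from 83 codons (Timm8b) to 100 codons (Timm10b).

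Of the 36 genes, far more were lower than higher after culture. Between GV and MII 13 genes were lower past 2-fold and 0 were higher, between GV and TubA-10 5 were lower and 0 higher, and between GV and TubA-20 16 were lower and 1 higher. Over all 21957 genes, 8.34% were lower and 3.05% higher in MII, 5.6% lower and 0.742% higher in TubA-10, and 11.7% lower and 7.61% higher in TubA-20. Many genes of the table are hardly expressed and cannot pass 2-fold, so the counts were also taken among genes of at least 5 FPKM in either library compared, which kept 26 of the 36 members. Of these 26, 13 were lower in MII, where 20.8% of all such genes were lower and 8.26% higher. In TubA-10 5 of the 26 were lower against 14.2% of such genes, with 1.77% higher. In TubA-20 14 of the 26 were lower and 1 was higher, against 26.8% and 20.2% of such genes. In percent, the members lower among the 26 were 50% (MII), 19.2% (TubA-10) and 53.8% (TubA-20). These shares stood above those of all genes in MII and TubA-20, while in TubA-10 the share was near that of all genes. The 26 had a median log2 change of -0.92 (MII), -0.12 (TubA-10) and -1.12 (TubA-20), where the median of all such genes was 0.11, 0.15 and 0.23. These 3 comparisons use the same GV library.

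Added up, the 36 genes made 4461 FPKM in GV, 3633 in TubA-10, 2871 in MII and 2900 in TubA-20, or 0.716%, 0.615%, 0.505% and 0.462% of all FPKM in those libraries. GV was the highest and TubA-10 the next highest. The 7 small TIM genes summed to 1518 FPKM in GV, 1357 in TubA-10, 978 in MII and 1125 in TubA-20. The 14 large subunits summed to 1054, 538, 391 and 341 FPKM in the same order. In TubA-20 Timm8b alone made 810 of the 1125 FPKM of the small TIM genes.

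**Figure D1:**
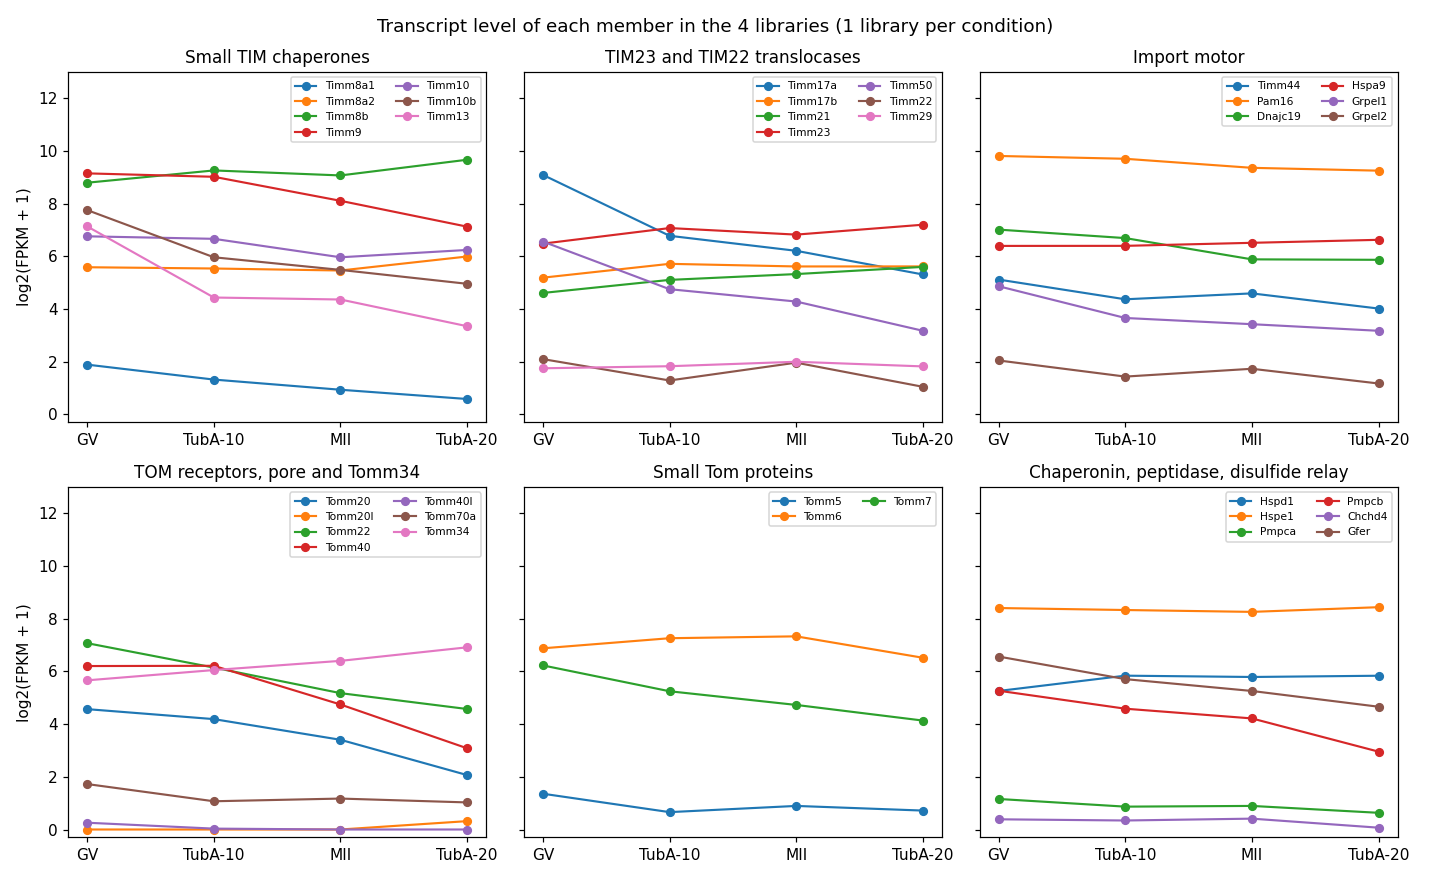
The log2 of FPKM + 1 of every member in the 4 libraries, in panels by function, with 1 point per library and lines that only join the points of a gene. Timm13 and Timm17a sit at 139 and 543 FPKM in GV and at 9.15 and 38.6 FPKM in TubA-20, while Timm8b, Timm23 and Tomm34 have their highest point in TubA-20.

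The small TIM chaperones did not move as 1 group. Timm13, the partner of the Timm8 proteins, had 139 FPKM in GV, 20.6 in TubA-10, 19.5 in MII and 9.15 in TubA-20. GV stood far above the 3 cultured libraries, and TubA-20 was lowest. On FPKM + 1 the fall from GV was 6.84-fold to MII, 6.5-fold to TubA-10 and 13.8-fold to TubA-20 (log2 -3.79), and there Timm13 ranked 43rd from the lowest of 7778 genes of at least 5 FPKM. On GRCm38 the gene lies on chromosome 10 (80899450 to 80900969, minus strand). Timm8b had 442 FPKM in GV, 611 in TubA-10, 536 in MII and 810 in TubA-20. Its levels went the other way, with GV lowest and TubA-20 highest, although the log2 change of 0.87 to TubA-20 did not pass 2-fold. Timm8b lies on chromosome 9 (50603910 to 50605320, plus strand).

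Of the other Timm8 genes, Timm8a2 had 46.9 FPKM in GV, 45.3 in TubA-10, 43.0 in MII and 62.5 in TubA-20. Its first 3 levels lay close together and no comparison passed 2-fold. Timm8a1, the X-linked gene whose human counterpart is mutated in deafness-dystonia syndrome, had 2.69 FPKM in GV, 1.49 in TubA-10, 0.906 in MII and 0.494 in TubA-20. Its log2 change to TubA-20 was -1.30, at a level where few fragments carry the value. It also shares 41.0% of its 50-base stretches with Gm9797, which had at most 0.0429 FPKM. Timm8b was thus the most abundant Timm8 mRNA in every library, 9.43 times Timm8a2 in GV and 13 times in TubA-20.

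The ratio of Timm8b to its partner Timm13 was 3.18 in GV, 29.7 in TubA-10, 27.5 in MII and 88.5 in TubA-20. That of Timm8a2 to Timm13 was 0.337, 2.2, 2.2 and 6.84 in the same order, so that Timm13 was the more abundant of those 2 mRNAs in GV and the less abundant in each cultured library.

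Timm9 and Timm10, which form the main carrier chaperone, behaved differently. Timm9 (chromosome 12, 71123173 to 71136684, minus strand) had 566 FPKM in GV, 517 in TubA-10, 274 in MII and 138 in TubA-20. TubA-10 was near GV, MII was lower and TubA-20 lowest, with a 4.07-fold fall from GV (log2 -2.02) and a log2 change of -0.98 from MII that stayed just short of 2-fold. Timm10 (chromosome 2, 84826997 to 84830213, plus strand) had 107 FPKM in GV, 100 in TubA-10, 61.3 in MII and 74.5 in TubA-20. It was lowest in MII, and none of its changes passed 2-fold. The ratio of Timm9 to Timm10 was 5.28 in GV, 5.16 in TubA-10, 4.48 in MII and 1.86 in TubA-20, so only TubA-20 of the 4 libraries stood apart.

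Timm10b, which tethers the carrier chaperone to TIM22, had 214 FPKM in GV, 61.3 in TubA-10, 43.7 in MII and 29.98 in TubA-20. It was lower past 2-fold in each cultured library, by 6.96-fold in TubA-20. A further protein-coding model, Gm45799, overlaps its exons on the same strand on chromosome 7, so part of its value could belong to that model. Of the 7 small TIM genes, 2 were lower past 2-fold in TubA-10, 3 in MII and 4 in TubA-20, and 0 were higher. Among genes of at least 5 FPKM with a coding sequence of up to 400 bases, 36.0% were lower in MII and 44.4% in TubA-20. Of the 6 small TIM genes at that level, 3 were lower in each, a count near those shares.

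Among the large subunits the split ran through the TIM23 complex. Timm17a, a core channel subunit (chromosome 1, 135295213 to 135313778, minus strand), had 543 FPKM in GV, 109 in TubA-10, 72.8 in MII and 38.6 in TubA-20. Its paralog Timm17b on the X chromosome (7899357 to 7908351, plus strand) had 35.4, 51.4, 47.9 and 48.0 FPKM in the same order. Timm17a was thus 13.7-fold below GV in TubA-20 (log2 -3.78, 45th from the lowest of 7778 genes), whereas no change of Timm17b passed 2-fold, and the ratio of Timm17a to Timm17b was 15.3 in GV, 2.11 in TubA-10, 1.52 in MII and 0.805 in TubA-20.

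Timm50, the presequence receptor of TIM23, had 93.2 FPKM in GV, 25.9 in TubA-10, 18.4 in MII and 8.00 in TubA-20, with a 10.5-fold fall from GV to TubA-20 and a log2 change of -1.11 from MII to TubA-20. Timm23, the other channel subunit, had 88.1, 133, 112 and 146 FPKM in the same order, highest in TubA-20. Timm21, which links TIM23 to the respiratory chain, had 23.4, 33.3, 39.0 and 47.3 FPKM. The log2 changes of Timm23 and Timm21 from GV to TubA-20 were 0.72 and 0.99, short of 2-fold, and the ratio of Timm23 to Timm50 went from 0.946 in GV to 18.2 in TubA-20. Timm23 shares 90.9% of its 50-base stretches with 7 other annotated genes, only 1 of which is in the table (at most 0.103 FPKM), so its value is uncertain. Of the TIM22 genes, Timm22 had 3.27 FPKM in GV, 1.43 in TubA-10, 2.89 in MII and 1.06 in TubA-20, and Timm29 stayed between 2.35 and 2.98 FPKM.

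The TOM complex held the widest differences between both TubA doses. Tomm40, the pore (chromosome 7, 19701313 to 19715438, minus strand), had 72.8 FPKM in GV, 73.3 in TubA-10, 25.8 in MII and 7.48 in TubA-20. TubA-10 was at the level of GV, and TubA-20 was below MII. It was the 1 member higher past 2-fold in TubA-10 than in MII (log2 1.47), and it was 8.76-fold lower in TubA-20 than in TubA-10. The receptor Tomm20 had 22.7 FPKM in GV, 17.3 in TubA-10, 9.60 in MII and 3.19 in TubA-20, and the receptor Tomm22 had 134, 69.9, 35.2 and 22.8 FPKM. In both genes GV was highest and TubA-20 lowest, with falls to TubA-20 of 5.67-fold and 5.65-fold on FPKM + 1. The third receptor, Tomm70a, had 2.31 FPKM in GV and 1.04 to 1.26 FPKM in the other libraries. Tomm20l was at 0 except for 0.246 FPKM in TubA-20, and Tomm40l did not exceed 0.195 FPKM in any library.

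The small Tom proteins that stabilise the pore differed too. Tomm7 had 74.1 FPKM in GV, 37.0 in TubA-10, 25.5 in MII and 16.6 in TubA-20, a 4.27-fold fall to TubA-20. Tomm6 had 117, 153, 160 and 90.9 FPKM, and passed 2-fold nowhere, but 86.7% of its 50-base stretches also belong to Gm21981, a model on the same strand. Tomm5 was between 0.580 and 1.56 FPKM. Tomm34, a cytosolic co-chaperone of preproteins, had 49.7 FPKM in GV, 65.4 in TubA-10, 83.6 in MII and 120 in TubA-20. It was the 1 member past 2-fold above GV in TubA-20 (log2 1.25).

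**Figure D2:**
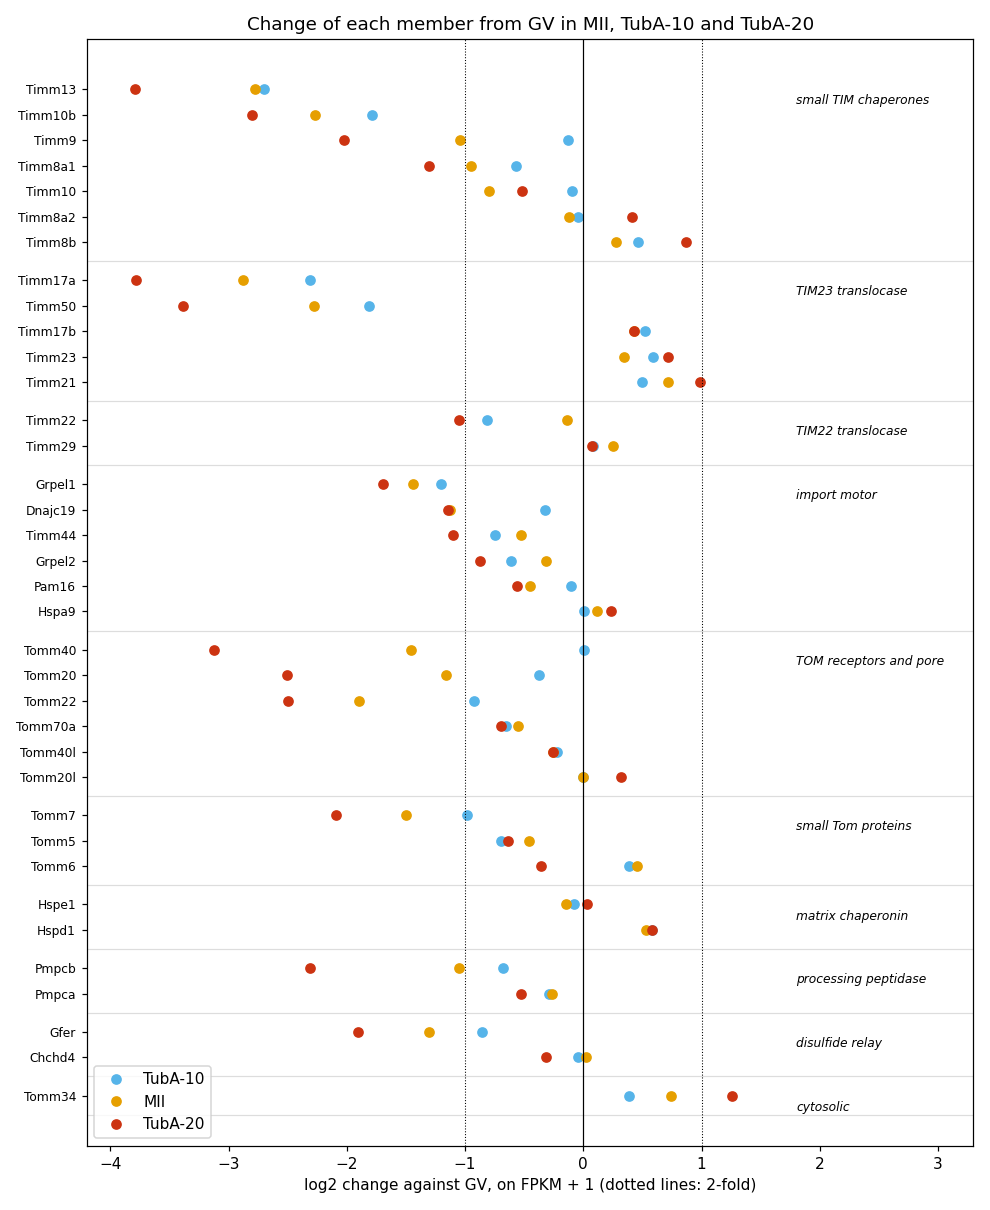
The log2 change of FPKM + 1 from GV of each member, in TubA-10, MII and TubA-20, grouped by function, with dotted lines at 2-fold and 1 library per point. In most genes far to the left the TubA-20 point (down to -3.79) lies beyond MII and MII beyond TubA-10, while only the TubA-20 point of Tomm34 is past 2-fold on the right.

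In the import motor 3 of 6 genes were lower past 2-fold in TubA-20 than in GV (Dnajc19, Grpel1 and Timm44). Of all genes 11.7% were lower, and 26.8% of those of at least 5 FPKM. Pam16, a regulator of the motor, was the most abundant member in GV with 895 FPKM, and had 831 in TubA-10, 654 in MII and 607 in TubA-20. Its changes stayed within 2-fold, although 88.7% of its 50-base stretches are shared with Gm9803, which had 3.68 to 14.5 FPKM. Dnajc19, the J protein of the motor, had 128 FPKM in GV, 102 in TubA-10, 57.9 in MII and 57.2 in TubA-20, lower past 2-fold in MII and TubA-20. It shares 32.0% of its 50-base stretches with 1 other annotated gene that is not in the table, so its value is less certain. Hspa9, the motor chaperone, had 83.0, 83.1, 90.1 and 97.6 FPKM and differed from GV by at most 0.23 on the log2 scale. Its nucleotide exchange factor Grpel1 had 28.1 FPKM in GV, 11.6 in TubA-10, 9.70 in MII and 7.99 in TubA-20 and was lower past 2-fold in each cultured library. The ratio of Hspa9 to Grpel1 was 2.96 in GV and 12.2 in TubA-20. Timm44, which anchors the motor, had 33.6, 19.6, 23.1 and 15.2 FPKM, and Grpel2 had 3.12, 1.69, 2.31 and 1.25 FPKM, and in both the level in TubA-10 was below that in MII.

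The chaperonin genes differed little from GV, by at most 0.58 on the log2 scale. Hspd1 had 37.3 FPKM in GV, 56.3 in TubA-10, 54.4 in MII and 56.2 in TubA-20, and Hspe1, which shares a divergent promoter region with it on chromosome 1, had 339, 322, 306 and 347 FPKM. Neither passed 2-fold in any comparison. Their sequences recur in other annotated genes, 9 for Hspd1 (44.8% of its 50-base stretches) and 6 for Hspe1 (36.1%). Of the presequence peptidase, Pmpcb, the catalytic subunit, had 37.6 FPKM in GV, 23.0 in TubA-10, 17.6 in MII and 6.76 in TubA-20, a 4.97-fold fall to TubA-20, and Pmpca, its partner, did not exceed 1.23 FPKM. Of the disulfide relay, Gfer, the sulfhydryl oxidase, had 93.8, 51.3, 37.3 and 24.3 FPKM, a 3.74-fold fall, and Chchd4, the oxidoreductase that it recharges, did not exceed 0.331 FPKM in any library.

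**Figure D3:**
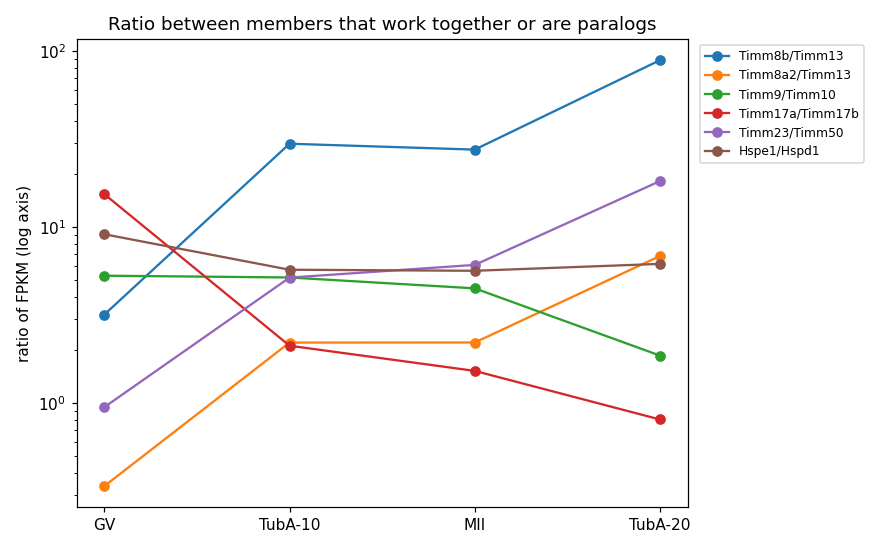
The ratio of FPKM on a log axis between members that work together or are paralogs, with 1 point per library. Timm8b to Timm13 goes from 3.18 in GV to 88.5 in TubA-20 and Timm17a to Timm17b from 15.3 to 0.805, while Hspe1 to Hspd1 stays between 5.63 and 9.08.

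Set against each other, the small TIM chaperones and the large subunits were not separated. From GV to TubA-20 the median log2 change was -1.30 for the 7 small TIM genes (from -3.79 to 0.87) and -0.87 for the 14 large subunits (from -3.78 to 0.99). From GV to MII the medians were -0.95 and -0.39, and from GV to TubA-10 -0.13 (0.14 when the libraries were scaled to equal Gapdh) and -0.30. The ranges lay over each other almost fully in all 3. In MII and TubA-20 the order of the medians turned without the low genes: 5 of the 14 large subunits were under 5 FPKM in both libraries of each comparison, and without them and Timm8a1 the medians for TubA-20 were -1.27 and -2.50 and those for MII -0.92 and -1.16. Small minus large was then 1.23 for TubA-20 in place of -0.43, and 0.24 for MII in place of -0.56. Among genes of at least 5 FPKM, 3 of 6 small TIM genes and 6 of 9 large subunits were lower past 2-fold in TubA-20. Of all such genes 26.8% were lower, and 44.4% of those with a coding sequence of up to 400 bases. Of the 36 members, 7 share more than 30% of their 50-base stretches with other genes (Dnajc19, Hspd1, Hspe1, Pam16, Timm23, Timm8a1 and Tomm6). Without these 7, 5 members were lower than in GV in TubA-10, 12 in MII and 14 in TubA-20. Over all genes the shares were 5.6%, 8.34% and 11.7%, or 14.2%, 20.8% and 26.8% of those of at least 5 FPKM.

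**Figure D4:**
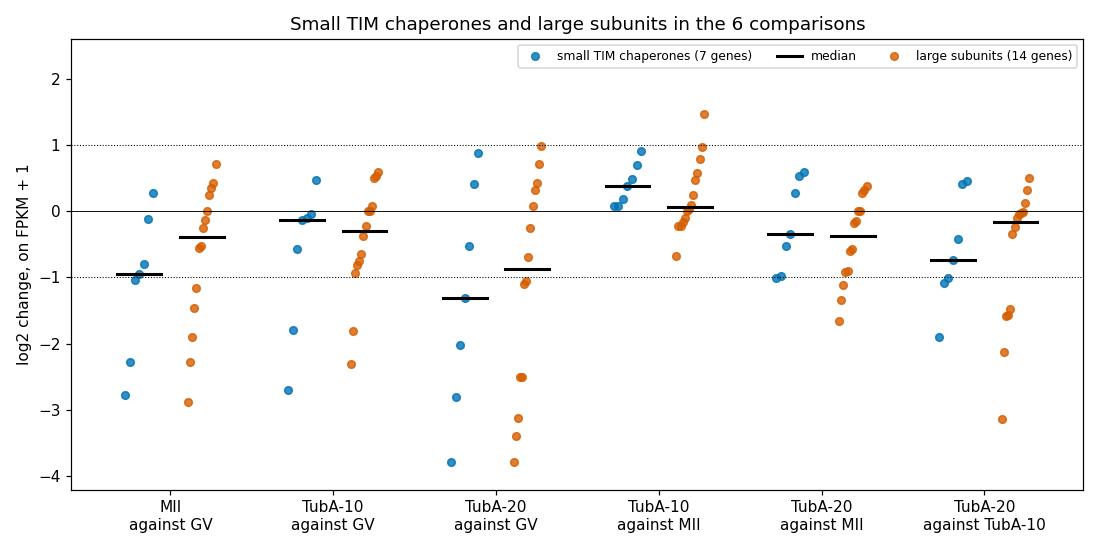
The log2 change of FPKM + 1 of the 7 small TIM chaperones and 14 large subunits in the 6 comparisons, each point a gene and each bar the median of its group. The points of both groups overlap in each comparison, and run from -3.79 to 0.87 and from -3.78 to 0.99 for TubA-20 against GV.

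Compared with MII, the control cultured without TubA, TubA-10 had 1 of 36 members higher past 2-fold (Tomm40) and 0 lower. Of all genes, 0.515% were higher and 0.128% lower, or 1.29% and 0.206% of genes of at least 5 FPKM. All 7 small TIM genes were above MII in TubA-10, by log2 0.08 (Timm13 and Timm8a2, hardly above 0) to 0.91 (Timm9), none past 2-fold. That direction was shared by 21 of the 26 members of at least 5 FPKM (80.8%) and by 50.6% of all genes at that level. In TubA-20, 5 members were lower than in MII past 2-fold and 0 were higher: Tomm40 (log2 -1.66), Tomm20 (-1.34), Pmpcb (-1.26), Timm50 (-1.11) and Timm13 (-1.01). Over all genes 2.44% were lower and 0.328% higher, and over genes of at least 5 FPKM 6.09% and 0.542%. Timm8b and Timm8a2 were the members most above MII in TubA-20, by 0.60 and 0.53, followed by Tomm34 with 0.51.

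Between both doses, 11 members were lower past 2-fold in TubA-20 than in TubA-10 and 0 were higher, against 5.52% and 0.66% of all genes, and 14.1% and 1.45% of genes of at least 5 FPKM. All 11 belonged to the 26 members at that level. The widest falls were those of Tomm40 (log2 -3.13), Tomm20 (-2.12) and Timm9 (-1.89). The medians of small TIM genes and large subunits in this comparison were -0.74 and -0.17, and -0.71 and -1.47 among genes of at least 5 FPKM, so their order turned here as well. It also turned for TubA-10 against MII, where small minus large was 0.32, and -0.13 among genes of at least 5 FPKM. For TubA-10 against GV small minus large was 0.17, and -0.05 without Timm8a2. For TubA-20 against MII it was 0.02, near 0, and ran from -0.11 to 0.48 over 13 alternatives, with the other sign in 4 of them.

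The 4 libraries could be put in order for each of the 33 members with at least 1 FPKM in one of them. The order GV, TubA-10, MII, TubA-20 from highest to lowest held for 14 of them (42.4%), and for 22.6% of all genes with at least 1 FPKM. The reverse order held for 3 (Hspa9, Timm21 and Tomm34), or 9.09%, and for 24.3% of all such genes. TubA-10 lay between GV and MII in 22 of the 33 (66.7%), near the 64.5% of all such genes.

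Length was compared as a feature that the choice of genes did not use. In the principal transcripts, coding length ran with the change of all genes: from GV to TubA-20, 44.4% of genes with a coding sequence of up to 400 bases were lower past 2-fold, 38.8% of those from 400 to 800 bases, 28.7% from 800 to 1600 bases and 14.5% of longer ones. Of the members, 5 of 11, 5 of 8, 4 of 5 and 0 of 2 were lower in these bins. The share of members was thus close to that of all genes in the shortest bin, which holds every small TIM gene counted, and higher in the 2 bins after it. Bins of transcript length gave another picture. Of members with transcripts of 400 to 800 bases 1 of 6 were lower, against 55.6% of all genes. From 800 to 1600 bases it was 5 of 7 against 47.7%, and above that 8 of 13 against 19.6%. Among the 26 members coding length and change were hardly related (Spearman's rho 0.09), a description over genes that share both libraries. The part of length in the members' changes was not tested.

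**Figure D5:**
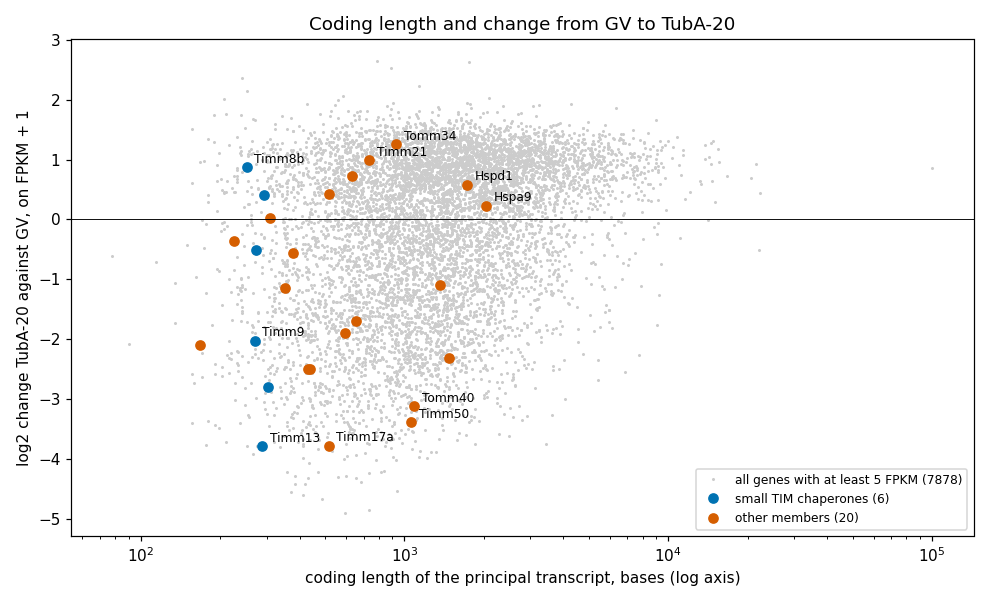
The log2 change of FPKM + 1 from GV to TubA-20 against coding length on a log axis, for 7878 genes that reached 5 FPKM (grey), small TIM chaperones (blue) and other members (orange). Members of similar coding length lie far apart, such as Timm8b at 0.87 and Timm13 at -3.79.

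A cytoplasmic polyadenylation element (CPE), which in maturing oocytes can direct the lengthening of a poly(A) tail, was searched as TTTTAT or TTTTAAT on the transcript strand within the last 100 bases of the 3′ UTR. Of all genes of at least 5 FPKM, 20.6% had one, and their median log2 change from GV to TubA-20 was 0.72, against 0.01 for the others. Among the members 6 of 36 had one, and 3 of these were in the group of at least 5 FPKM: Timm8b, Tomm34 and Tomm6. None of the 3 was lower past 2-fold in TubA-20 and 1 was higher, while 14 of the 23 other members were lower and 0 higher. Of all genes with a site, 12.2% were lower and 30.1% higher, so the 3 members were near those shares. Of all genes without a site, 30.1% were lower and 17.2% higher. The site nearest to the transcript end is shown for these 3, as the members of that level with a site in the window. Capitals mark the motif nearest to the end. Tomm6 has 2 matches in its last 100 bases, and the other stands in lower case just before the capitals.
Timm8b: tcaaaagtgaaaTTTTATttatgggaattc
Tomm34: taattgaactgaTTTTATtgaagtgtgtgt
Tomm6: ggtattttattcTTTTAATaagaaacttat
The motif starts 66 bases from the end in Timm8b, 48 in Tomm34 and 78 in Tomm6. Of the 8 members whose level was highest in TubA-20, 2 had a site in the window (Timm8b and Tomm34). Sites lay farther from the end in 3 of them, at 101 bases in Hspe1 and 105 bases in Timm23, just outside the window, and beyond that in Timm21. The other 3, Timm8a2, Hspa9 and Tomm20l, had none in the 3′ UTR. Such a match is only a run of letters, and its part in the levels was not tested. In the promoters of RefSeq (GRCm38.p6, 250 bases before to 50 after the start), 31 of the 36 members were found. The ETS type motif CCGGAAG on either strand was in 14 of these 31, in 9.93% of all 27025 promoters and in 21.1% of the 8618 belonging to genes with at least 1 FPKM, and the NRF1 type motif was in 6 of 31, against 7.0% and 15.9%.

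Beyond the 36 genes, 4 lists of neighbouring functions were taken whole, 56 genes in all. In TubA-20, 31 of the 56 were lower than in GV past 2-fold and 3 were higher, in MII 26 and 0, and in TubA-10 20 and 0, beside the shares of all genes given above. The twin CX9C proteins, which enter by the disulfide relay and include several subunits and assembly factors of the respiratory chain, were the list with the most: 16 of 19 lower in TubA-20 (median -1.88), 12 in MII and 8 in TubA-10, with 0 higher. Ndufb7, a complex I subunit, had 419 FPKM in GV, 53.5 in TubA-10, 47.9 in MII and 16.3 in TubA-20 (log2 -4.60), and Cox6b1, at the other end, had 335, 310, 318 and 327 FPKM. Chchd2 had 576, 433, 203 and 51.9 FPKM, the widest fall of this list from MII to TubA-20 (log2 -1.94), and Cmc2 stood 0.33 above MII.

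Among outer membrane assembly, insertion and presequence processing genes 5 of 14 were lower and 2 higher in TubA-20, against GV. Mtx1, a metaxin of the sorting and assembly machinery, had 131 FPKM in GV, 36.6 in TubA-10, 30.6 in MII and 12.3 in TubA-20, and Romo1, a small inner membrane protein, had 318, 491, 585 and 1075 FPKM, the highest in TubA-20 (log2 1.75). Of the proteases and co-chaperones 7 of 16 were lower and 0 higher. Dnlz, an escort protein of Hspa9, had 21, 6.01, 4.63 and 2.06 FPKM, and Spg7, a subunit of an inner membrane protease, had 3.70, 5.02, 5.02 and 7.98 FPKM (log2 0.93). Of the MICOS genes, which shape cristae, 3 of 7 were lower and 1 higher, with Immt at 79.2, 156, 145 and 231 FPKM (log2 1.53) and 2410015M20Rik at 73.8, 21, 18.3 and 8.36 FPKM (log2 -3.0). Among all genes of at least 5 FPKM, 26.8% were lower and 20.2% higher in TubA-20 than GV. Against MII, TubA-20 had 7 of the 56 lower past 2-fold and 0 higher, beside 2.44% and 0.328% of all genes, or 6.09% and 0.542% of those of at least 5 FPKM.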

How the data were processed

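GV, MII, TubA-10 and TubA-20 oocytes were measured by strand-marked mRNA sequencing, with 1 library each. The authors deposited 1 table of FPKM values made with cufflinks (library type fr-firststrand) on mm10, and the submitters' notes also list STAR 2.5.0 and Cuffdiff 2.2.1. A UCSC gene model is named in the methods, although the identifiers are those of Ensembl, and RNA extraction is described differently in the labels and the methods. FPKM does not show the number of fragments behind a value, and the read totals that the study states are not repeated or used here.

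Identifiers were joined to GENCODE symbols (165 of 21959 entries had none, and kept their identifier), and entries sharing a symbol were summed. Log2 ratios of FPKM + 1 were computed without further scaling in 6 comparisons, with a 2-fold threshold. The members, the groups and the other lists were chosen with earlier results of these data known, and every member could be named. Of each other list only the genes with the largest rise and fall in TubA-20 against GV or MII were named, with Cox6b1 as the highest twin CX9C gene. The cutoff of 30% shared 50-base stretches was chosen after seeing the data. Sequences come from GENCODE principal transcripts on GRCm38. The alternatives were pseudocounts of 0.1 and 0.01, minima of 1 and 5 FPKM, 4 scalings, thresholds of 1.5 and 3, the highest entry per symbol, small TIM genes without Timm8a2, and large subunits with the small Tom proteins or with all other members. The scripts were tested on simulated data. The tools were matplotlib 3.10.9, scipy 1.17.1, pandas 2.3.3 and numpy 2.4.6 under Python 3.11.15. Fold change or test columns were not in the table, and read-level data were not used here.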

Additional observations from a re-analysis of the deposited data

How the results depend on the processing

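With 1 library per condition no spread, test or interval was available, and values near 1 FPKM rest on few fragments. No paired analysis was possible because each condition had 1 library. Whether the direction of the members past 2-fold depends on the setting could not be tested with these alternatives. A pseudocount, a minimum or a threshold cannot turn the direction of a change. The scalings shifted the libraries by much less than 2-fold, too little to turn such a change. The counts of members lower from GV to MII and to TubA-20 stayed within 1.5 times under every pseudocount, minimum and scaling.

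Pseudocounts of 0.1 and of 0.01 both gave 9 members lower in TubA-10 than in GV, 3 higher in TubA-20 than in GV, 1 higher in TubA-20 than in MII and 1 higher in TubA-20 than in TubA-10. The small TIM median from GV to TubA-20 was -2.03 under each. For TubA-10 against MII, 0.01 gave 2 higher and 1 lower. With the median change set to 0, 8 members were lower in TubA-10 than in GV. Equal Gapdh gave 2 higher in TubA-20 than in GV, 2 higher in TubA-10 than in MII and 8 lower in TubA-20 than in MII, and equal FPKM sums also gave 8 for the last.

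A 1.5-fold threshold gave 2 higher in MII than in GV, 1 higher and 14 lower in TubA-10 than in GV, 4 higher in TubA-20 than in GV, 6 higher and 1 lower in TubA-10 than in MII, 1 higher and 12 lower in TubA-20 than in MII, and 1 higher in TubA-20 than in TubA-10. A 3-fold threshold gave 5 lower in MII than in GV, 0 higher in TubA-20 than in GV, 0 higher in TubA-10 than in MII, 1 lower in TubA-20 than in MII and 4 lower in TubA-20 than in TubA-10. The shares of all genes were not taken at these other pseudocounts, scalings and thresholds. These counts therefore show only how the calls depend on the setting, and not whether members differ from all genes there.

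With at least 5 FPKM required, the large subunit median was -1.16 for MII against GV, -2.50 for TubA-20 against GV and -1.47 for TubA-20 against TubA-10, and small minus large was 0.24, 1.23 and 0.75. These changes follow from the 5 large subunits left out. For the others the cause was not tested.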
